A study of Homo sapiens with 9 samples.

Results

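The 10 genes described here encode the MYC network and the PIM kinases: MYC and MYCL, their obligate partner MAX, the MAX-binding repressors MXD1, MXD4, MXI1 and MNT, and the kinases PIM1, PIM2 and PIM3. They were taken by gene name from tables of 60683 genes, and each name matched 1 row. The mRNA came from cells labelled as HCT-15, a human line of a colorectal adenocarcinoma, with a genotype given as WT in all groups, while every library title also carries the code 769, which the labels do not explain. The groups were cells kept in oxaliplatin, a platinum drug that binds DNA, cells kept in sorafenib, an inhibitor of RAF and several receptor kinases, and cells with no treatment, with 3 libraries each. Per the labels' protocols the oxaliplatin cells started at 0.5 µM for 7 days, passed through 1, 2 and 4 µM between day 10 and day 30, and stayed at 4 µM, and sorafenib cells were made in a like manner at doses not given in the sources used here. The libraries of a group carry a single library code in their titles and nothing names separate cultures, so all p-values rest on a spread among libraries that could be purely technical.

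MYC is a transcription factor that binds DNA only as a dimer with MAX and raises transcription of genes for ribosome assembly, nucleotide and amino acid supply and cell cycle entry. MXD1, MXD4, MXI1 and MNT compete for MAX and for the same E-box letters in DNA and recruit histone deacetylases, so they oppose MYC. PIM kinases are active as soon as they are translated, so their activity follows their mRNA and protein turnover. They are induced by cytokine receptors through STAT factors, phosphorylate proteins of survival and translation, and cooperate with MYC in lymphoma models of the mouse.

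Total counts were 15797076 to 20936536 in oxaliplatin, 17489612 to 18918545 in sorafenib and 17138210 to 19780645 in untreated libraries. Of 12 colorectal epithelium markers 10 had a median under 1 CPM (counts scaled to a fixed library total), and 7 of them (CDX2, CDX1, CDH1, KRT20, ASCL2, CEACAM5 and GUCY2C) had 0 counts in all 9 libraries, which allows up to 3 counts or 0.143 to 0.190 CPM for each. The summed level of the 12, nearly all of it KRT8 and KRT18, was 709 to 857 CPM in oxaliplatin, 847 to 1122 CPM in sorafenib and 1132 to 1569 CPM in untreated libraries. VIL1, among the 10, had 0.176, 6.91 and 7.27 CPM in untreated libraries 1 to 3 and at most 0.107 CPM in any oxaliplatin or sorafenib library. Of 8 renal epithelium markers 4 had a median of at least 10 CPM, and the sum of the 8 was 660.5 to 674 CPM in oxaliplatin, 607 to 666 CPM in sorafenib and 398 to 536 CPM in untreated libraries. Among the 8, EMX2 had 0 counts throughout and CA9 at most 0.0917 CPM. LRP2 had 0.977 to 1.34 CPM in oxaliplatin, 7.18 to 7.88 CPM in sorafenib and 1.54 to 6.92 CPM in untreated libraries. The 6 immune markers summed to at most 0.663 CPM in a library, with PTPRC, CD3E and HBB among those at 0 counts throughout. Of the 6 fibroblast and endothelial markers CDH5 was at 0 counts throughout, and the sum, most of it COL1A1, was 12.6 to 19.8 CPM in oxaliplatin, 1.45 to 2.499 CPM in sorafenib and 6.22 to 43.1 CPM in untreated libraries. The absence of most colorectal markers goes against the labelled cell type, and which line was sequenced was not tested. The colorectal and renal sums moved with the groups, and their part in the results below was not tested.

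PIM1 and MYC moved in opposite directions in oxaliplatin. PIM1 fell to 0.307 times its untreated level and MYC rose 1.56-fold, while in sorafenib neither passed the test. All 10 genes passed the filter on low counts, and 2 of them were called in oxaliplatin against untreated, where 31.7% of the 16159 genes tested were. Of the 2, 1 was higher and 1 lower, where 16.2% and 15.5% of genes were. Higher genes made up 51.1% of these calls, 65.4% when libraries were scaled by size alone and 35.2% once GC content and length were corrected for, which also called MXD1, MNT and PIM2 (adjusted p = 0.0141, 0.0127 and 0.0463, edgeR). Calls here and below needed an adjusted p under 0.05 from the quasi-likelihood test of edgeR, adjusted by Benjamini-Hochberg over all genes tested. In oxaliplatin against sorafenib 3 of 10 were called (MYC higher, MXD1 and PIM1 lower), against 10.3% of genes, 5.20% higher and 5.07% lower, and 1 of 10 without oxaliplatin 1, sorafenib 2 or sorafenib 3. In sorafenib against untreated 0 of 10 were called by edgeR and 0 by DESeq2, with 1 (MXD1) at an unadjusted p under 0.05, against 4.80% of genes, 2.82% higher and 1.97% lower. The comparisons share their groups, so their values are given side by side and are not independent of each other.

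**Figure D1:**
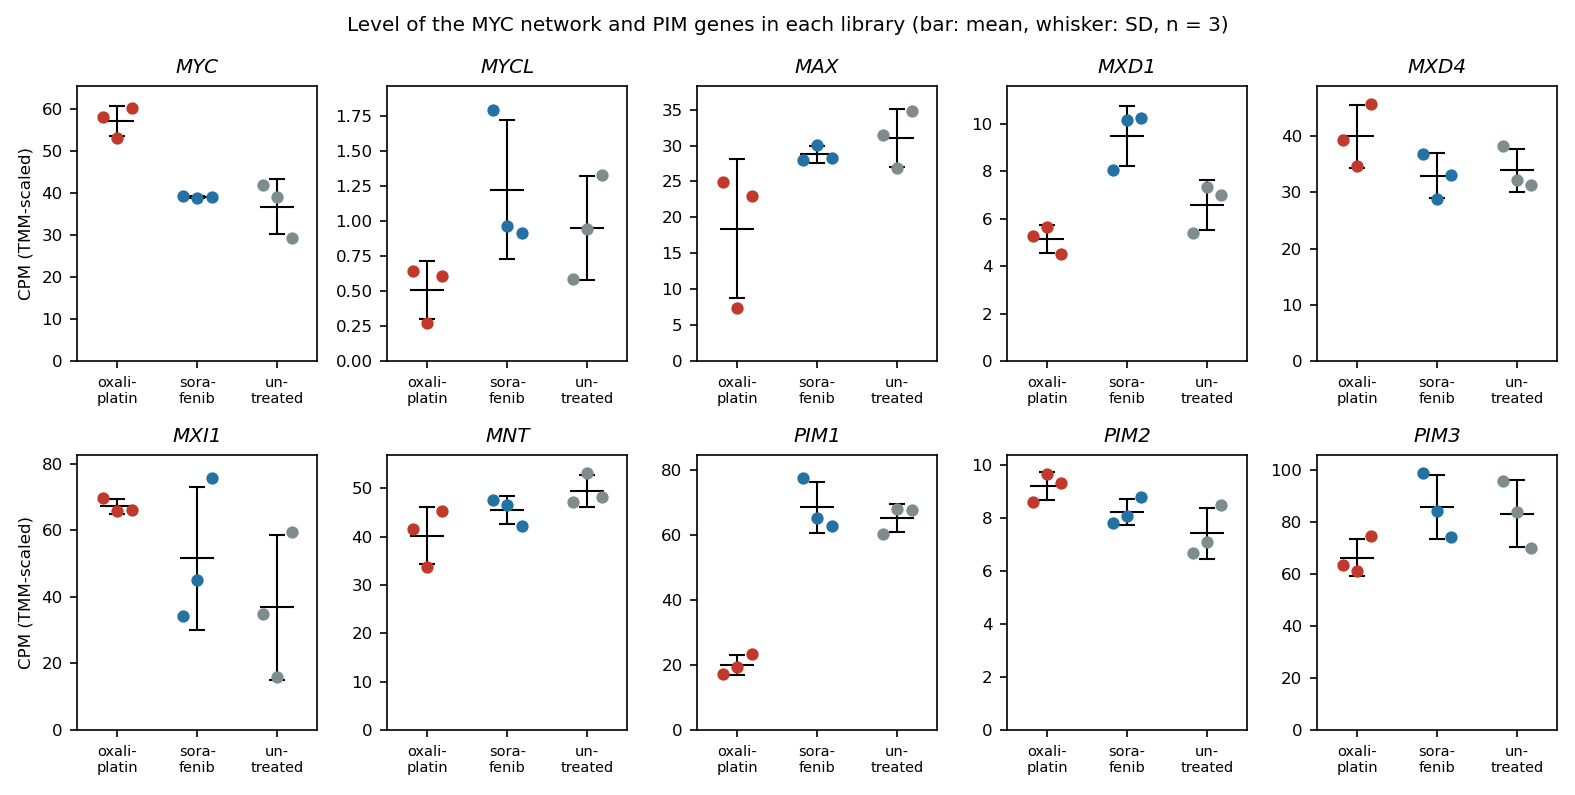
TMM-scaled CPM (y axis, from 0, a separate scale for each gene) in the 3 libraries of each group (points), with the mean (bar) and SD (whisker). PIM1 lies at 17.3 to 23.3 CPM in oxaliplatin and at 60.2 CPM or more in all other libraries, and MYC lies at 53.2 CPM or more in oxaliplatin and at 41.9 CPM or less elsewhere.

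MYC (ENSG00000136997, chr8:127735434-127742951, GRCh38 here and for all genes, as the files give it) had 58.2, 53.2 and 60.3 CPM in oxaliplatin libraries 1 to 3, 39.3, 38.8 and 39.1 CPM in sorafenib libraries and 41.9, 39.0 and 29.3 CPM in untreated libraries. Every oxaliplatin value lay above every other value, and the sorafenib values fell inside the untreated range. The log2 fold change of oxaliplatin against untreated was 0.64 ± 0.14 (SE, adjusted p = 0.00819, edgeR's quasi-likelihood test), and it stayed between 0.50 and 0.77 and called under 17 alternatives. Sorafenib against untreated gave 0.09 with a 95% interval of -0.22 to 0.40 (adjusted p = 0.721). Oxaliplatin against sorafenib gave 0.55 ± 0.14 (adjusted p = 0.0331). That last call ended without any one of oxaliplatin 1, 2 or 3 (adjusted p = 0.107, 0.0666 and 0.0644) or sorafenib 1, 2 or 3 (0.0875, 0.0849 and 0.0944), within 0.00536 to 0.107 over 17 alternatives, and its log2 fold change stayed between 0.52 and 0.63. In bulk RNA a change in the number of cells that express a gene and a change in its RNA per cell cannot be told apart.

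PVT1, the long non-coding gene next to MYC, did not pass the test, with 31.1, 31.7 and 32.6 CPM in oxaliplatin libraries, 37.7, 37.8 and 37.7 CPM in sorafenib libraries and 31.6, 35.8 and 43.1 CPM in untreated libraries (log2 fold change -0.21 ± 0.12 in oxaliplatin against untreated, adjusted p = 0.218). Its oxaliplatin and untreated values overlapped.

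MYCL (ENSG00000116990, chr1:39895426-39902256), a MYC relative first found amplified in lung cancer, was close to the detection floor with 5 to 33 counts in a library. It had 0.642, 0.271 and 0.608 CPM in oxaliplatin libraries, 1.79, 0.965 and 0.911 CPM in sorafenib libraries and 0.587, 0.940 and 1.33 CPM in untreated libraries. The log2 fold change was -0.90 in oxaliplatin against untreated, with an interval of -1.95 to 0.15 (adjusted p = 0.168). Against sorafenib it was -1.25 (interval -2.29 to -0.22, adjusted p = 0.112), and all oxaliplatin values lay below all sorafenib values. Neither difference passed the adjusted threshold. MYCN, the third relative, had 0 counts in all 9 libraries.

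MAX (ENSG00000125952, chr14:65006174-65102695), the partner that MYC and its antagonists share, had 24.9, 7.38 and 23.0 CPM in oxaliplatin libraries, 27.9, 30.1 and 28.3 CPM in sorafenib libraries and 31.5, 26.9 and 34.9 CPM in untreated libraries. The 3 oxaliplatin values lay below all others, but oxaliplatin 2, with 136 counts, stood far below oxaliplatin 1 and 3, with 543 and 379. The log2 fold change in oxaliplatin against untreated was -0.75 with an interval of -1.59 to 0.09 (adjusted p = 0.150). Without oxaliplatin 2 it was -0.37 (adjusted p = 0.1002). Against sorafenib it was -0.64 (interval -1.48 to 0.20, adjusted p = 0.297). Per transcript length, MAX stood at 0.0939 to 0.290 times the level of MYC in oxaliplatin libraries, 0.481 to 0.525 times in sorafenib libraries and 0.467 to 0.805 times in untreated libraries. With the longer MYC locus of the files, described with the levels per length below, these ratios would be up to 0.437, 0.790 and 1.21.

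**Figure D2:**
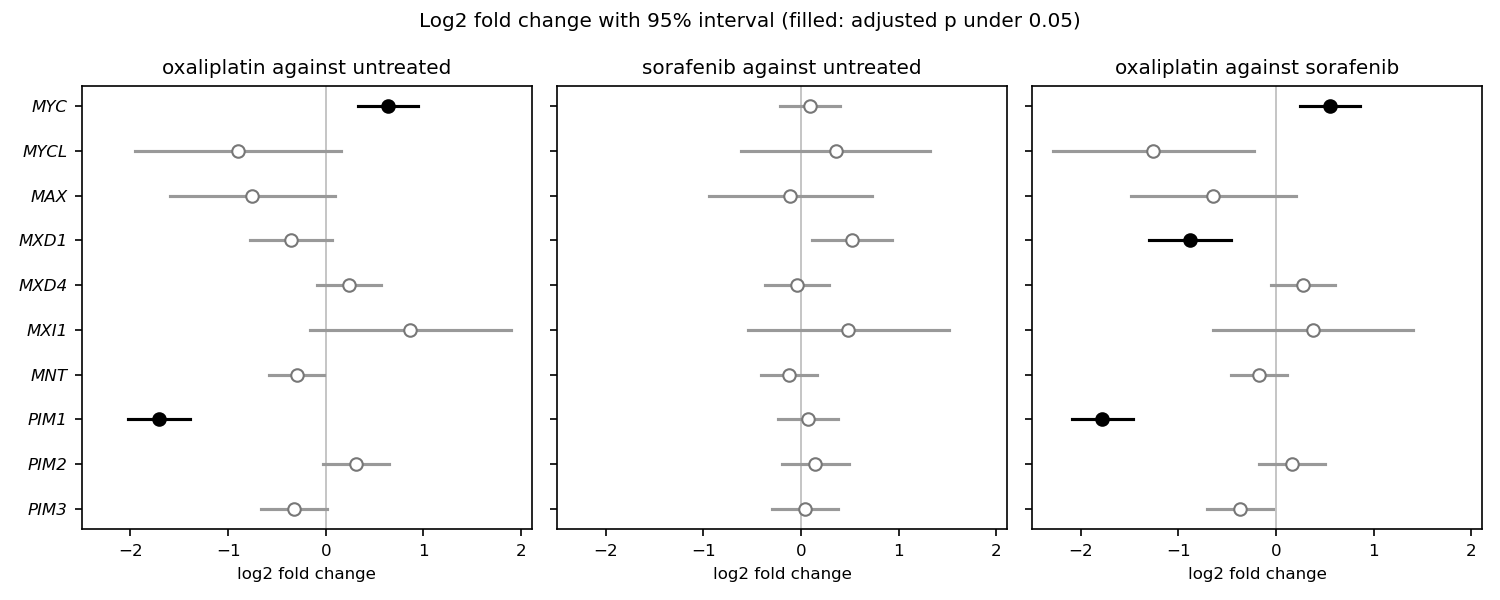
Log2 fold changes (x axis) of the 10 genes in the 3 comparisons, with 95% intervals (lines), filled where the adjusted p was under 0.05. PIM1 stands apart at -1.71 and -1.78 in both comparisons of oxaliplatin, all sorafenib against untreated values lie between -0.12 and 0.52, and the intervals of MYCL, MAX and MXI1 are the widest.

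None of the 4 MAX-binding repressors passed the test against untreated in either drug, and MXD1 passed it between the drugs. MXD1 (ENSG00000059728, chr2:69897688-69942945), a repressor that rises as myeloid and epithelial cells differentiate, had 5.27, 5.64 and 4.50 CPM in oxaliplatin libraries, 8.04, 10.2 and 10.2 CPM in sorafenib libraries and 5.40, 7.35 and 7.00 CPM in untreated libraries. The sorafenib values lay above all others. In oxaliplatin against sorafenib MXD1 fell by 0.88 ± 0.19 on the log2 scale (adjusted p = 0.0182), a call that ended without oxaliplatin 1, sorafenib 2 or sorafenib 3 (adjusted p = 0.0667, 0.0564 and 0.0649, within 0.00128 to 0.0667 over 17 alternatives). Against untreated it was at -0.36 in oxaliplatin (interval -0.78 to 0.06, adjusted p = 0.169) and at 0.52 in sorafenib (interval 0.11 to 0.94, adjusted p = 0.116). MXD1 shares 237 exon bases with SNRNP27 on the same strand in GENCODE 29, so some counts could belong to either gene. SNRNP27 had 13.3 to 17.7 CPM in oxaliplatin and 15.4 to 18.4 CPM in sorafenib libraries (log2 fold change -0.07, adjusted p = 0.853).

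MXI1 (ENSG00000119950, chr10:110207605-110287365), an antagonist also known as MXD2, was the most uneven of the 10 within its groups. It had 69.7, 65.6 and 66.0 CPM in oxaliplatin libraries, 34.2, 44.9 and 75.6 CPM in sorafenib libraries and 35.0, 15.98 and 59.5 CPM in untreated libraries. The oxaliplatin values were close together and above all untreated ones, while the highest untreated library stood 3.72-fold above the lowest. The log2 fold change in oxaliplatin against untreated was 0.87 with an interval of -0.17 to 1.90 (adjusted p = 0.173). It was 1.39 (adjusted p = 0.0486) without untreated 3 and 0.50 (adjusted p = 0.323) without untreated 2. Sorafenib against untreated gave 0.49 (interval -0.54 to 1.52, adjusted p = 0.535).

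The spread of log2 CPM within groups was 0.64 for MXI1 and 0.56 for MAX, larger than in 95.6% and 94.1% of the 11089 genes averaging 5 CPM or more, whose median was 0.19. For MYC and PIM1 it was 0.16 each. In GENCODE 29 MXI1, MAX, MYCL and MNT share 205, 184, 226 and 1065 exon bases with genes on the opposite strand, and since the strand setting is not given, reads of such a pair could not be told apart. These opposite genes had median counts of 0 or 1.

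MXD4 and MNT varied little. MXD4 (ENSG00000123933, chr4:2247432-2262109), a repressor described in differentiating cells, had 39.4, 34.8 and 45.8 CPM in oxaliplatin libraries, 36.9, 28.9 and 33.1 CPM in sorafenib libraries and 38.3, 32.2 and 31.4 CPM in untreated libraries. Its groups overlapped, with a log2 fold change of 0.23 in oxaliplatin against untreated (interval -0.09 to 0.56, adjusted p = 0.241). MNT (ENSG00000070444, chr17:2384073-2401104), the antagonist that is expressed in dividing and resting cells alike, had 41.5, 33.8 and 45.2 CPM in oxaliplatin libraries, 47.6, 46.6 and 42.2 CPM in sorafenib libraries and 47.1, 53.2 and 48.2 CPM in untreated libraries. All oxaliplatin values lay below all untreated ones, with a log2 fold change of -0.30 (interval -0.59 to -0.01, adjusted p = 0.0993). For sorafenib against untreated MXD4 was at -0.04 (interval -0.37 to 0.28) and MNT at -0.12 (interval -0.41 to 0.16), with adjusted p-values of 0.887 and 0.585. Summed per transcript length, the 4 repressors stood at 1.33 to 1.36 times the level of MYC in oxaliplatin libraries, 1.48 to 2.11 times in sorafenib libraries and 1.18 to 2.45 times in untreated libraries, so the oxaliplatin ratios lay inside the untreated range. With the longer MYC locus they would be 2.02 to 2.06 in oxaliplatin, 2.24 to 3.20 in sorafenib and 1.79 to 3.71 in untreated libraries.

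PIM1 (ENSG00000137193, chr6:37170152-37175428), the first kinase of its family to be found at a retroviral insertion site in mouse lymphomas, had 17.3, 19.5 and 23.3 CPM in oxaliplatin libraries, 77.5, 65.2 and 62.9 CPM in sorafenib libraries and 60.2, 67.9 and 67.6 CPM in untreated libraries. The oxaliplatin libraries were all well below the others, whose groups overlapped. PIM1 fell by 1.71 ± 0.14 on the log2 scale in oxaliplatin against untreated (adjusted p = 0.00043), lower than in 3 of 3 untreated libraries for each oxaliplatin library, and 0.842% of genes tested had a log2 fold change as low or lower. Against sorafenib PIM1 fell by 1.78 ± 0.14 (adjusted p = 0.000162). Both calls held under all 17 alternatives, with log2 fold changes of -1.82 to -1.59 and -1.89 to -1.68. Sorafenib against untreated gave 0.07 with an interval of -0.23 to 0.38 (adjusted p = 0.784).

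PIM2 and PIM3 did not pass the test in any of the 3 comparisons. PIM3 (ENSG00000198355, chr22:49960768-49964072), the member found in endoderm-derived tumours, had 63.3, 61.2 and 74.4 CPM in oxaliplatin libraries, 98.7, 84.4 and 74.1 CPM in sorafenib libraries and 95.8, 83.7 and 70.0 CPM in untreated libraries. Its groups overlapped, and the log2 fold change in oxaliplatin was -0.33 against untreated (interval -0.66 to 0.01, adjusted p = 0.123) and -0.37 against sorafenib (interval -0.71 to -0.03, adjusted p = 0.144). PIM2 (ENSG00000102096, chrX:48913182-48919024), known mainly from lymphoid cells and myeloma, had 8.62, 9.66 and 9.30 CPM in oxaliplatin libraries, 7.82, 8.06 and 8.79 CPM in sorafenib libraries and 6.69, 7.08 and 8.49 CPM in untreated libraries. All oxaliplatin values lay above all untreated ones, with a log2 fold change of 0.31 (interval -0.03 to 0.65, adjusted p = 0.145). For sorafenib against untreated PIM3 was at 0.04 (interval -0.29 to 0.38) and PIM2 at 0.15 (interval -0.19 to 0.49), with adjusted p-values of 0.887 and 0.578. The interval of the PIM1 change against untreated, -2.02 to -1.39, does not overlap those of PIM2 and PIM3. A test of the difference between these genes was not made.

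Across the 10 genes the 3 oxaliplatin values lay entirely above or below the 3 untreated ones for 6, where 48.1% of tested genes did so. For sorafenib against untreated this held for 1, against 29.8%, and for oxaliplatin against sorafenib for 5, against 34.9%.

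Levels can be compared between genes only per transcript length, as FPKM, here the CPM divided by the exon length in kilobases from GENCODE 29. These lengths are approximate, since the start or end of MYC, MXD4, MNT, PIM1 and PIM3 differs between that annotation and the files. The locus of MYC is 1517 bases longer in the files. Were these all exon, MYC would be at 12.7 FPKM in oxaliplatin, 8.65 FPKM in sorafenib and 8.13 FPKM in untreated libraries, below MXI1 in both drugs, and its place beside MXI1 in the order below is therefore not settled. For MXD4, MNT, PIM1 and PIM3 the length would change by -185, -27, 53 and -263 bases. In oxaliplatin libraries PIM3 was highest at 26.9 ± 2.89 FPKM (mean ± SD, n = 3 libraries here and below), followed by MYC at 19.1 ± 1.20, MXI1 at 14.6 ± 0.489 and PIM1 at 6.72 ± 1.02 FPKM. MXD4, MNT and MAX followed at 5.66 ± 0.783, 4.60 ± 0.668 and 4.16 ± 2.17 FPKM, overlapping each other, and PIM1 overlapped MXD4. PIM2 was at 3.33 ± 0.191, MXD1 at 0.809 ± 0.0918 and MYCL at 0.1001 ± 0.0405 FPKM. In untreated libraries the order was PIM3 at 33.8 ± 5.24, PIM1 at 21.9 ± 1.47, MYC at 12.2 ± 2.19 and MXI1 at 7.99 ± 4.73 FPKM. MAX at 7.01 ± 0.905, MNT at 5.67 ± 0.374 and MXD4 at 4.81 ± 0.537 FPKM followed within the spread of MXI1, and PIM2 at 2.69 ± 0.343, MXD1 at 1.04 ± 0.164 and MYCL at 0.188 ± 0.0730 FPKM came last. Sorafenib libraries gave PIM3 at 34.8 ± 5.03, PIM1 at 23.0 ± 2.65 and MYC at 13.0 ± 0.0855 FPKM at the top. MXI1 and MAX followed at 11.2 ± 4.67 and 6.49 ± 0.261 FPKM, then MNT and MXD4 at 5.21 ± 0.330 and 4.67 ± 0.567 FPKM, PIM2 at 2.98 ± 0.182, MXD1 at 1.49 ± 0.196 and MYCL at 0.242 ± 0.0977 FPKM. The values of MXI1 overlapped those of MYC in sorafenib and untreated libraries but not in oxaliplatin libraries, and those of PIM3 and PIM1 did not overlap in any group. PIM1 thus stood above MYC and MXI1 in sorafenib and untreated libraries and below both in oxaliplatin libraries.

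PIM1 made up 16.8 to 18.9% of the summed PIM level per length in oxaliplatin libraries, 37.1 to 38.8% in sorafenib libraries and 32.8 to 41.9% in untreated libraries. PIM3 made up 71.2 to 74.2% in oxaliplatin libraries, 55.3 to 58.1% in sorafenib libraries and 52.5 to 63.2% in untreated libraries. The share of PIM2 was 8.13 to 10.0% in oxaliplatin libraries, 4.11 to 5.85% in sorafenib libraries and 3.93 to 5.67% in untreated libraries.

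**Figure D3:**
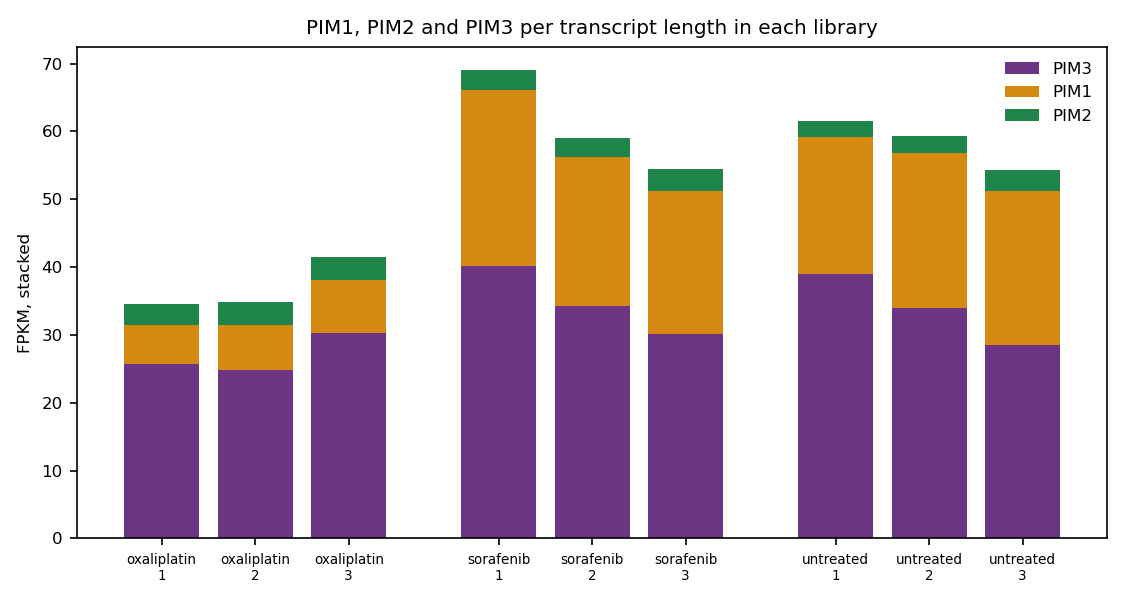
Stacked level of PIM3, PIM1 and PIM2 per transcript length (y axis, FPKM) in each of the 9 libraries (x axis). The PIM1 segment is 5.81 to 7.82 FPKM in oxaliplatin and 20.2 to 26.1 FPKM in all other libraries, while PIM3 is 24.9 FPKM or more in every library.

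The PIM1 promoter window of RefSeq (GRCh38.p14, chr6:37169902-37170201, plus strand, 250 bases before to 50 after the start) is shown because PIM1 is the member with the largest change of the 10 in oxaliplatin. It is 79.7% G and C and holds neither of the motifs searched on both strands, which were the E-box CACGTG and TTCNNNGAA, a form of the palindrome that STAT factors bind.
PIM1: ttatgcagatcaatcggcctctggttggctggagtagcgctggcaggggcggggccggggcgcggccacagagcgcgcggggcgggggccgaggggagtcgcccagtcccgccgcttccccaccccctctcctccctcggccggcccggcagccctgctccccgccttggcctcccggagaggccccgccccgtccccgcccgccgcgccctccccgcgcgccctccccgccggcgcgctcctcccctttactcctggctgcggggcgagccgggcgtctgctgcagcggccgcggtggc

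RefSeq windows were found for 9 of the 10 genes, and MYC is named only. The letters CACGTG stand in 2 of the 9, MXD4 and MNT, and TTCNNNGAA in 0, counting all windows of a gene. Of 10445 tested genes with a window 12.6% and 8.41% hold them in any window, and of all 35116 single windows 7.26% and 7.66% do. Neither motif overlaps the other in letters. The windows around the E-box (in capitals) are given below with the E-boxes found in named MYC target genes described further on, as these are the letters that MYC and its antagonists bind. The genes shown include HK2, which was higher in sorafenib against untreated, and others that were lower in a comparison below. MXD4 lies at chr4:2262330-2262359 (minus strand), 238 bases before the start, and MNT at chr17:2401236-2401265 (minus strand), 193 bases before it. MRTO4 lies at chr1:19251807-19251836 (plus strand), 14 bases after the start, and SLC7A5 at chr16:87869620-87869649 (minus strand), 130 bases before it. HK2 has a pair at chr2:74834964-74834993 and chr2:74835009-74835038 (plus strand), 194 and 149 bases before the start, and NOP2 has one at chr12:6568242-6568268 (minus strand), 35 bases after it. ODC1 has a pair at chr2:10448024-10448053 and chr2:10447990-10448019 (minus strand), 29 bases before and 5 after the start. All coordinates of windows are in GRCh38.p14.
MXD4: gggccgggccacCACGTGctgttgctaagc
MNT: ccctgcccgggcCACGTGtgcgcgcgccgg
MRTO4: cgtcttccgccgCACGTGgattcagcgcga
SLC7A5: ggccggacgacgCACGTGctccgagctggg
HK2, farther from the start: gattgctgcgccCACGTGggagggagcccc
HK2, nearer to the start: ttccggcgagagCACGTGgagagaatcgtg
NOP2: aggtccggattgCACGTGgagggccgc
ODC1, before the start: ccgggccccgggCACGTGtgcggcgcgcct
ODC1, after the start: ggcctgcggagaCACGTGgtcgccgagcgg

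Genes known to be activated by MYC were described in a pair of lists. In the list for the nucleolus and ribosome assembly 19 of 30 tested genes fell and 1 rose in oxaliplatin against untreated, with a median log2 fold change of -0.60 against 0.02 over all genes tested. Calls made up 66.67% of the list, where 31.7% of all genes tested were called. Without oxaliplatin 1 the number that fell was 12. The one that rose was POLR1A, the largest subunit of RNA polymerase I (0.37 ± 0.12, adjusted p = 0.0362). NCL, the gene of nucleolin, had 601, 564 and 659 CPM in oxaliplatin libraries, 948, 821 and 892 CPM in sorafenib libraries and 979, 1317 and 1315 CPM in untreated libraries, and fell by 0.99 ± 0.14 on the log2 scale against untreated (adjusted p = 0.00175). PA2G4, a nucleolar growth regulator, had 219, 258 and 243 CPM in oxaliplatin libraries against 406, 432 and 427 CPM in untreated libraries (log2 fold change -0.81 ± 0.10, adjusted p = 0.00122). MRTO4, a factor of large subunit assembly, and DKC1, the pseudouridine synthase dyskerin, fell by 0.82 ± 0.13 and 0.64 ± 0.11 (adjusted p = 0.00312 and 0.00346). In sorafenib against untreated 1 of the 30 fell (NOP2, adjusted p = 0.0481, a call that 11 of 17 alternatives ended) and 0 rose, with a median of -0.20, and in oxaliplatin against sorafenib 3 fell and 0 rose, with a median of -0.27. These 3 were 10% of the list, where 10.3% of all genes tested were called between the drugs. In sorafenib against untreated 3.333% of the list was called, where 4.80% of all genes tested were. The 3 became 6 with DESeq2 and 7 once GC content and length were corrected for, and were 0 without oxaliplatin 1, 1 without oxaliplatin 2 and 5 without oxaliplatin 3.

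In the list for growth, metabolism and the cell cycle 17 of 37 tested genes fell in oxaliplatin against untreated and 1 rose, with a median of -0.56. Calls made up 48.65% of this list, where 31.7% of all genes tested were called. Without untreated 2 the number that fell was 11. EIF5A, a translation factor with near-identical copies that could share its reads, had 180, 176 and 219 CPM in oxaliplatin libraries against 425, 545 and 459 CPM in untreated libraries (log2 fold change -1.31 ± 0.15, adjusted p = 0.00113). SLC7A5, the transporter of large neutral amino acids, fell by 1.19 ± 0.14 against untreated and by 1.07 ± 0.14 against sorafenib (adjusted p = 0.00118 and 0.00202). ODC1, the first enzyme of polyamine synthesis and a classical MYC target, had 255, 259 and 275 CPM in oxaliplatin libraries, 475, 402 and 441 CPM in sorafenib libraries and 378, 504 and 495 CPM in untreated libraries, and fell by 0.80 ± 0.13 against untreated (adjusted p = 0.00298). TYMS, thymidylate synthase, fell by 0.81 ± 0.10 (adjusted p = 0.00148). In sorafenib against untreated 1 of 37 rose (HK2, a hexokinase, 0.95 ± 0.12, adjusted p = 0.00472) and 1 fell (TYMS, 0.57 ± 0.10 lower, adjusted p = 0.0193), with a median of -0.19, and DESeq2 called 7 as lower. The edgeR calls of this comparison made up 5.405% of the list, where 4.80% of all genes tested were called. The TYMS call ended without untreated 2 or 3 (adjusted p = 0.0792 and 0.0779) or sorafenib 2 or 3 (0.0725 and 0.0939). In oxaliplatin against sorafenib 7 fell and 1 rose, with a median of -0.23. Calls between the drugs made up 21.62% of the list, where 10.3% of all genes tested were called.

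The E-box stood in a promoter window of 10 of 24 nucleolar and 17 of 30 growth genes with a RefSeq window, 41.7% and 56.7%, where 12.6% of 10445 tested genes had it. Of the 27 listed targets with it 17 fell and 0 rose in oxaliplatin against untreated (median -0.62), and of the 27 without it 13 fell and 1 rose (median -0.57).

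Of 17 tested genes that MYC is known to repress, 5 rose and 5 fell in oxaliplatin against untreated, with a median of -0.21. THBS1, the gene of thrombospondin 1, and CDKN1A, that of the kinase inhibitor p21, rose by 1.35 ± 0.13 and 1.56 ± 0.26 (adjusted p = 0.000822 and 0.00405), and GADD45A, a growth arrest gene, fell by 1.00 ± 0.14 (adjusted p = 0.00177). CDKN1A was uneven, with 233.2, 251.4 and 113.3 CPM in oxaliplatin libraries 1 to 3. It had 106.2 to 126.9 CPM in sorafenib and 60.84 to 78.45 CPM in untreated libraries. The 5 that fell were 3 without untreated 3, without oxaliplatin 1 and without sorafenib 2 or 3. Against untreated, 4 rose and 1 fell in sorafenib, with a median of 0.12, among them CLU, the chaperone clusterin, at 1.51 ± 0.16 and NDRG1, a stress-induced gene, at 0.84 ± 0.11 (adjusted p = 0.00191 and 0.00568). The gene that fell was PDGFRB, a receptor of platelet-derived growth factor, by 1.22 ± 0.20 (adjusted p = 0.012), a call that ended without untreated 3 or sorafenib 2 or 3 (adjusted p = 0.053, 0.0612 and 0.0603). NDRG1 had 197, 172 and 209 CPM in oxaliplatin libraries, 374, 318 and 359 CPM in sorafenib libraries and 205, 202 and 182 CPM in untreated libraries. In oxaliplatin against sorafenib 2 rose and 5 fell, with a median of -0.21, and without oxaliplatin 1 the 5 were 3. Calls made up 58.82% of this list in oxaliplatin and 29.41% in sorafenib against untreated, and 41.18% between the drugs. Of all genes tested 31.7%, 4.80% and 10.3% were called.

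The wider network also holds MLX and its partner MLXIP, which sense glucose metabolites, with TXNIP and ARRDC4 as their best known targets. TXNIP was counted in this list and among the repressed genes. Of 8 tested genes of this list 3 rose and 1 fell in oxaliplatin against untreated, and 2 rose in sorafenib against untreated, which were 3 without sorafenib 1 and 1 without untreated 2, sorafenib 2 or sorafenib 3. Calls made up 50% of the list in oxaliplatin and 25% in sorafenib, where 31.7% and 4.80% of all genes tested were called. MGA, among the 3 that rose in oxaliplatin (0.68 ± 0.22, adjusted p = 0.0384), was not called in 9 of 17 alternatives. Once GC content and length were corrected for, MGA was at -0.02 (adjusted p = 0.947). Between the drugs 0 of 8 were called by edgeR and by DESeq2, with 0 at an unadjusted p under 0.05, where edgeR called 10.3% of all genes tested. TXNIP had 185, 199 and 176 CPM in oxaliplatin libraries, 173, 183 and 193 CPM in sorafenib libraries and 90.1, 66.5 and 59.3 CPM in untreated libraries. It rose by 1.37 ± 0.15 in oxaliplatin and by 1.35 ± 0.15 in sorafenib against untreated (adjusted p = 0.00104 and 0.00215), with 0.03 between the drugs (interval -0.30 to 0.36). ARRDC4 rose by 1.78 ± 0.33 in oxaliplatin and by 1.74 ± 0.33 in sorafenib (adjusted p = 0.00482 and 0.0237), the second of which ended without untreated 2 or sorafenib 2 or 3 (adjusted p = 0.0941, 0.0775 and 0.0871) and with a fit of 2 groups only (0.0606). MLX and MLXIP themselves were at -0.20 ± 0.13 and -0.32 ± 0.12 in oxaliplatin (adjusted p = 0.234 and 0.0737). MXD3, an antagonist known in the mouse from the S phase, had 14.0, 18.01 and 25.2 CPM in oxaliplatin libraries, 31.8, 22.8 and 21.9 CPM in sorafenib libraries and 38.2, 38.9 and 35.8 CPM in untreated libraries, and fell by 0.98 ± 0.22 in oxaliplatin against untreated (adjusted p = 0.00923).

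Among 13 genes listed as cofactors of MYC 3 rose and 6 fell in oxaliplatin against untreated. Calls made up 69.23% of the 13, where 31.7% of all genes tested were called. The 13 include HDAC1, HDAC2, SIN3A and SIN3B, which act with the repressors that oppose MYC. These counts therefore mix genes that act with MYC and genes that act with its antagonists. RUVBL2 and RUVBL1, the paired ATPases of chromatin remodellers, fell by 1.07 ± 0.17 and 0.71 ± 0.12 (adjusted p = 0.0031 and 0.00344). The 6 were 3 without untreated 3, oxaliplatin 1 or oxaliplatin 2. TRRAP, a scaffold of histone acetyltransferases, rose by 0.77 ± 0.13 (adjusted p = 0.00331), but was at an adjusted p of 0.323 once GC content and length were corrected for. Sorafenib against untreated gave 0 calls of 13 in edgeR, with 3 at an unadjusted p under 0.05, and 2 in DESeq2. Of 16 genes of MYC turnover and its locus 4 rose and 1 fell in oxaliplatin, and without untreated 2 the 4 were 2. Calls made up 31.25% of this list, where 31.7% of all genes tested were called. GSK3B and USP28, among the 4, were not called once GC content and length were corrected for. They were then at -0.09 and 0.28 (adjusted p = 0.384 and 0.0640). HUWE1, a ubiquitin ligase, had 483, 423 and 439 CPM in oxaliplatin libraries, 255, 396 and 334 CPM in sorafenib libraries and 241, 175 and 218 CPM in untreated libraries (log2 fold change 1.08 ± 0.17 against untreated, adjusted p = 0.00294). FBXW7, the ubiquitin ligase subunit that marks MYC for destruction, was at 0.15 ± 0.13 (adjusted p = 0.408). The same genes had 0 calls of 16 in sorafenib against untreated in edgeR, with 3 at an unadjusted p under 0.05, and 1 in DESeq2. In that comparison edgeR called 4.80% of all genes tested. Between the drugs 1 gene of the cofactor list rose and 2 fell, and 1 turnover gene rose, oxaliplatin against sorafenib. These calls made up 23.08% of the cofactor list and 6.25% of the turnover list, where 10.3% of all genes tested were called. The gene of the cofactor list that rose was SIN3B, at 0.61 ± 0.14 (adjusted p = 0.0257), a call that 4 of 17 alternatives ended. The 2 that fell were 3 without oxaliplatin 3, 1 without untreated 3 and 0 without oxaliplatin 1 or 2 or any one sorafenib library.

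Cytokine receptors and STAT factors act upstream of PIM genes. Of 20 tested genes listed around this pathway 8 rose and 0 fell in oxaliplatin against untreated, with a median of 0.52. Besides receptors and STAT factors the 20 include JAK1, JAK2, TYK2, SOCS1, SOCS2, SOCS3, CISH, PIAS3, PTPN2, PTPN11, BCL6 and BCL3. These counts therefore mix genes that activate the pathway with genes that restrain it, such as the SOCS genes. STAT3, one of these factors, rose by 0.81 ± 0.11, and the receptor genes OSMR and LIFR by 1.08 ± 0.13 and 1.15 ± 0.23 (adjusted p = 0.00167, 0.00118 and 0.00651). Sorafenib against untreated gave 2 of 20 that rose and 0 that fell, with a median of 0.27. The 2 were 5 without untreated 1, 4 without sorafenib 1 and 1 without untreated 3, oxaliplatin 1, oxaliplatin 2, sorafenib 2 or sorafenib 3. OSMR rose by 1.00 ± 0.13 (adjusted p = 0.00444) and SOCS3, a feedback inhibitor induced by STAT3, by 0.87 ± 0.19 (adjusted p = 0.0354), which ended without untreated 2 or 3 (adjusted p = 0.125 and 0.114), oxaliplatin 1 or 2 (0.0534 and 0.0549) or sorafenib 2 or 3 (0.104 and 0.0996) or with a fit of 2 groups only (0.0656). In oxaliplatin against sorafenib 5 of 20 rose and 0 fell, with a median of 0.17. These 5 were 1 without oxaliplatin 1, oxaliplatin 2 or sorafenib 1, 2 without sorafenib 3 and 3 without untreated 2, untreated 3 or sorafenib 2. Calls made up 40% of the list in oxaliplatin and 10% in sorafenib against untreated, and 25% between the drugs. Of all genes tested 31.7%, 4.80% and 10.3% were called.

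Of 19 tested PIM substrates and partners 2 rose and 4 fell in oxaliplatin against untreated, though 4 rose and 2 fell when libraries were scaled by size alone. Their median was 0.04, against 0.02 over all genes tested, and 31.58% of them were called, against 31.7% of all genes tested. CDKN1A, described above, was counted here too. EIF4EBP1, the translation repressor 4E-BP1 that PIM signalling holds in check, had 68.1, 77.9 and 105 CPM in oxaliplatin libraries, 221, 140 and 139 CPM in sorafenib libraries and 176, 260 and 231 CPM in untreated libraries, and fell by 1.41 ± 0.24 against untreated (adjusted p = 0.00377). MAP3K5, the stress kinase ASK1 that PIM1 phosphorylates, rose by 0.97 ± 0.19 in oxaliplatin (adjusted p = 0.00565). BAD, a death protein that all PIM kinases phosphorylate, was at -0.36 ± 0.20 (adjusted p = 0.194). The 4 that fell were 2 without untreated 2, oxaliplatin 1 or oxaliplatin 2. With sorafenib 1 rose against untreated (MAP3K5, 1.03 ± 0.19, adjusted p = 0.0199) and 1 fell (HSP90AA1, the chaperone that stabilises PIM1, 0.60 ± 0.11 lower, adjusted p = 0.0182). Both calls ended without untreated 2 or 3 or sorafenib 2 or 3, at adjusted p-values of 0.0792, 0.079, 0.083 and 0.0815 for MAP3K5 and 0.0512, 0.0756, 0.0885 and 0.0851 for HSP90AA1. In oxaliplatin against sorafenib HSP90AA1 rose by 0.57 ± 0.11 and EIF4EBP1 fell by 0.99 ± 0.23 (adjusted p = 0.0105 and 0.0288). The EIF4EBP1 call ended without oxaliplatin 1 or 2 or sorafenib 1 (adjusted p = 0.106, 0.103 and 0.0818). Calls between the drugs made up 10.53% of this list, where 10.3% of all genes tested were called. In sorafenib against untreated they made up 10.53% of it, against 4.80% of all genes tested.

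**Figure D4:**
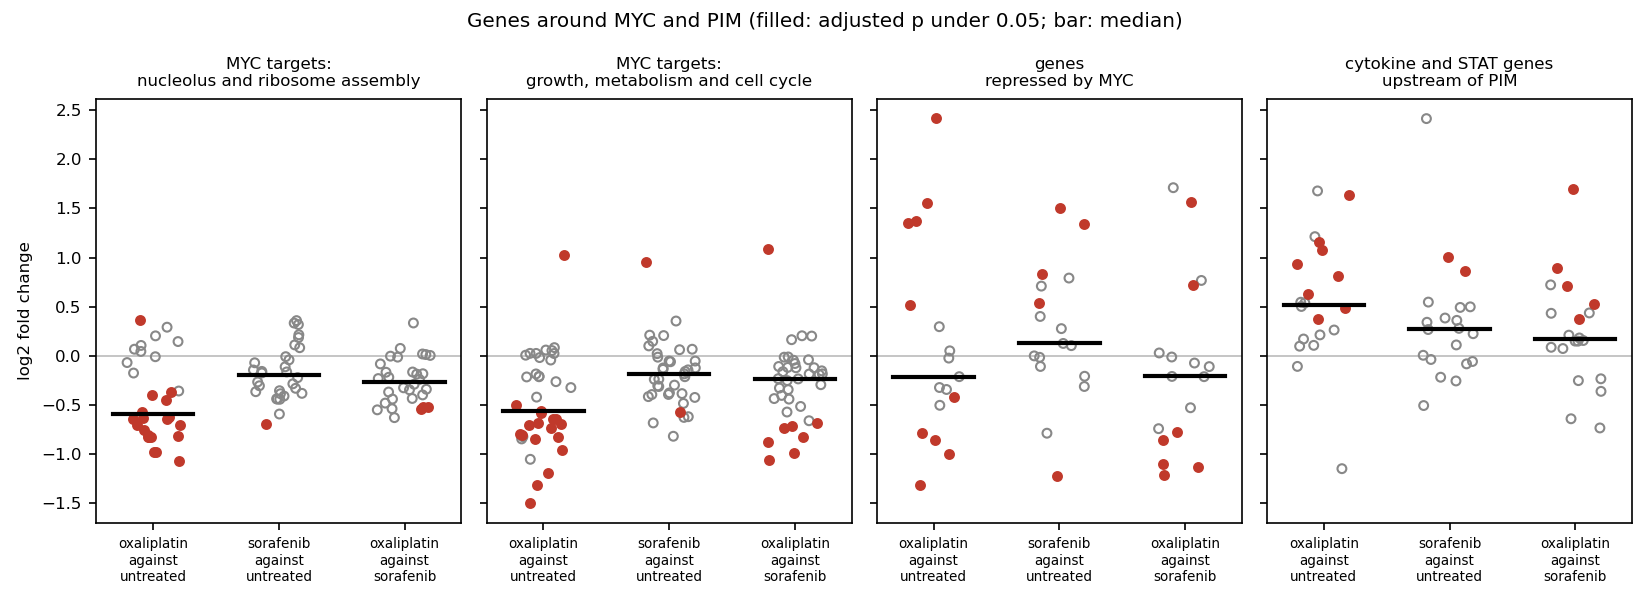
Log2 fold changes (y axis) of the tested genes in 4 of the lists (panels) in the 3 comparisons (x axis), filled where the adjusted p was under 0.05, with the list's median as a bar. In oxaliplatin against untreated the medians are -0.60 and -0.56 for the activated targets, -0.21 for the repressed genes and 0.52 for the cytokine and STAT genes.

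Likeness over the 9 libraries was measured by Pearson's correlation of log2 CPM among 10134 other protein-coding genes averaging 5 CPM or more. Genes among the 5 most like PIM1 were EZR, which links the membrane to actin, at 0.984, and NGEF, GADD45A and GHITM at 0.982 to 0.984. EZR had 287.5, 307 and 341 CPM in oxaliplatin libraries, 453, 430.1 and 418 CPM in sorafenib libraries and 424, 420.4 and 453 CPM in untreated libraries. Those most like MYC were PATJ, ACTA2, ARHGEF17, LAMB2 and CDH16, at 0.959 to 0.976, and PATJ, a tight junction scaffold gene, had 203 ± 14.2 CPM in oxaliplatin, 122 ± 10.47 CPM in sorafenib and 97.1 ± 27.7 CPM in untreated libraries (mean ± SD, n = 3 each). Those most like MXD4 were HOGA1, PEX6, ANKRD9, PNPLA6 and CABLES1, at 0.914 to 0.931. The 9 points fall into 3 groups, and the correlations are a description over them.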

How the data were processed

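Integer counts of 60683 genes in 9 libraries were deposited by the authors as raw counts, made with featureCounts on GRCh38 per the submitters' processing notes, which also name DESeq2. The aligner, annotation release, strand setting and handling of reads with several alignments are not given in the sources used here.

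In R 4.3.3, edgeR 4.0.16 filtered genes (filterByExpr, 16159 left), scaled libraries by TMM factors of 0.944 to 1.05 and fitted its robust quasi-likelihood model to all 9 libraries (biological coefficient of variation 0.224). Tests were 2-sided. SE is the absolute log2 fold change over the square root of F, and its 95% interval uses the moderated degrees of freedom. CPM values use the TMM factors, and FPKM are CPM over exon lengths of GENCODE 29. DESeq2 1.42.0 was an alternative, as were other scalings, filters, fits of 2 groups, a replicate block and omission of each library. A correction for GC content and length and exon lengths from the files' loci were added after the data were seen. The procedure was tested on simulated data. Members and lists were chosen with earlier results of these data known. Named list genes are up to 4 called ones with the smallest adjusted p and a mean of at least 1 CPM, and POLR1A, FBXW7, MLX, MLXIP, BAD, PVT1 and SNRNP27 were added after their values were seen. Floors cover counting error only. A few genes that the rule names are not reported here.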

Additional observations from a re-analysis of the deposited data

How the results depend on the processing

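Of 507 alternative values for the 10 genes 486 kept their direction and side of the threshold, 10 lost a call (MYC and MXD1 in oxaliplatin against sorafenib), 4 gained one and 7 changed sign, all in sorafenib against untreated and none called. With 1 library left out MYC ranged over -0.0496 to 0.1940, MYCL over -0.0258 to 0.6711, MXD4 over -0.1309 to 0.0523, PIM1 over -0.0266 to 0.1292 and PIM3 over -0.0695 to 0.1577 there. With the correction for GC content and length 5 of 10 genes were called in oxaliplatin against untreated, where MXD1, MNT and PIM2 joined at adjusted p-values of 0.0141, 0.0127 and 0.0463 in edgeR. Among other named genes MGA and GSK3B reversed under that correction, at -0.0176 and -0.0879 on the log2 scale, as did the uncalled TXNIP between the drugs (-0.0097, and -0.0220 without oxaliplatin 2 and -0.0163 without sorafenib 1). Genes called in sorafenib against untreated numbered 775, but 1819 with DESeq2, 1169 with that correction and 311 with 2 groups only. Leaving out 1 library gave 2913 to 5403 genes in oxaliplatin against untreated, 113 to 1743 in sorafenib against untreated and 572 to 1949 in oxaliplatin against sorafenib, and 2 to 3, 0 to 0 and 1 to 3 of the 10 genes in these comparisons. Scaling by library size alone moved the median log2 fold change of all genes to 0.13 in oxaliplatin against untreated. The share of calls that were higher there was 65.4%, against 51.1% with TMM and 35.2% with the correction. It was 41.5% with the correction in sorafenib against untreated (58.8% with TMM), and 64.2% by library size and 40.5% with the correction in oxaliplatin against sorafenib (50.6% with TMM). The replicate numbers did not pair the libraries, since deviations of same-numbered libraries correlated at -0.127 to 0.0534. With the replicate block 3773, 184 and 809 genes and 2, 0 and 2 of the 10 were called in the 3 comparisons. The lost one was MYC in oxaliplatin against sorafenib (adjusted p = 0.0783), and the block ended 16 calls of other named genes, among them TYMS, SOCS3, NOP2 and HSP90AA1 in sorafenib against untreated and EIF4EBP1 between the drugs (adjusted p = 0.0719, 0.0887, 0.0799, 0.074 and 0.0756). The causes were not tested. MYCL had 5 to 33 counts.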
